A study of Danio rerio with 2 samples.

Results

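The keratin genes of the adult zebrafish jaw joint were followed across the cells of both single-cell libraries of this study. Every gene whose symbol starts with *krt* was taken, with the *krtcap* genes left out, which gave 21 of the 36355 features. The choice used symbols only and no measured value.

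Keratins are the intermediate filament proteins of epithelial cells. A type I chain pairs with a type II chain to build the filament, and the filaments anchor at desmosomes between cells and at hemidesmosomes on the basement membrane. In stratified skin the basal layer uses *KRT5* with a type I partner in mammals, while simple epithelia use *KRT8* with *KRT18*. Fishes are known to keep keratins in some mesenchymal cells as well, where mammals rely largely on vimentin. In zebrafish, *krt4* regulatory sequence is a common tool for the outer skin layer and *krtt1c19e* sequence for basal keratinocytes.

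The cells came from 50 pooled jaw joints of uninjured fish, 3 months old, that carried both the *sox10:DsRed* and the *trps1:eGFP* transgene. After dissociation, live cells were sorted into a DsRed-positive fraction with or without GFP and a GFP-positive fraction, and each fraction gave 1 library. Either reporter is an imperfect handle on a cell type, since DsRed reaches only some of the cartilage cells and GFP is spread over most of the joint mesenchyme, cells of the joint surface among them. There is therefore no replicate of either sort, no value below has a significance test, and intervals are 95% intervals for counting error only.

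In the *sox10:DsRed*-enriched library 242 of 462 barcodes passed the limits on genes and mitochondrial RNA, with a median of 2588 UMIs (unique molecular identifiers, 1 for each captured transcript). In the *trps1:eGFP*-enriched library 3919 of 4876 passed, with a median of 3648 UMIs. The libraries shared 16 barcode sequences, of which 2 passed in both. Levels are given as CPM, the UMIs of a gene in every 1000000 UMIs of the summed cells. The protocol reads transcript 3′ ends, so a level is per transcript and was not divided by length. No sample was treated or injured, and the comparisons below are between cell classes.

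Of the 21 keratins, 19 had at least 1 UMI in the 4161 kept cells. Abundance was concentrated in 9 genes with at least 100 UMIs, namely *krt8*, *krt5*, *krt91*, *krt18a.1*, *krt4*, *krt15*, *krt18b*, *krt97* and *krt94*. The leading gene, *krt8*, had 70200 UMIs, and *krt94*, the lowest of the 9, had 3985. The next gene down was *krt98* with 50 UMIs, followed by *krtt1c19e* with 23 and *krt222* with 12. Between 1 and 9 UMIs were counted for *krt17*, *krt18a.2*, *krt92*, *krt1-19d*, *krt1-c5*, *krt93* and *krt99*, and none for *krt95* and *krt96*. Only 7 UMIs were counted for *krt18a.2*, which lies beside its copy *krt18a.1* in the gene table. Reads that fit both copies equally are left out of such counts, so either value may be too low and their ratio is uncertain.

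By their symbols, *krt4*, *krt5* and *krt8* are type II keratins, and *krt15*, *krt17*, the *krt18* genes, *krt1-19d*, *krt1-c5* and *krtt1c19e* are type I. The type of *krt91* to *krt99* was not given in the sources used here. In the RefSeq gene table (assembly GRCz12tu, which is not the build of the files, so that no position is given) the members fell on few chromosomes. The type II genes *krt5* and *krt8* shared theirs with *krt18a.1* and *krt18a.2*, and *krt4* shared its own with *krt18b*. The chromosome of *krt15* also held *krt93*, *krt94*, *krt95*, *krt98* and *krt99*, while *krt91* and *krt92* shared theirs with *krt17*, *krt1-19d* and *krtt1c19e*. Of the genes on the chromosome of *krt5*, *krt8* and *krt18a.1* were lower in the epithelial cells described below, whereas *krt5* was higher. With 7 UMIs *krt18a.2* could show no pattern.

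Epithelial cells were defined without any keratin, by *epcam*, which encodes an epithelial adhesion molecule. In the *trps1:eGFP*-enriched library 350 cells with at least 3 *epcam* UMIs were called epcam-high, 524 cells had 1 or 2, and 3045 had none and were called epcam-negative. Of the epcam-high cells, 342 fell in a single cluster of 366 cells that was named from basal epidermis markers. Of 6 basal epidermis markers compared with epcam-negative cells (with the rule given for the keratins below), 5 were higher in epcam-high cells. They held 2171 CPM of *col17a1b*, a hemidesmosome collagen, 2243 CPM of *itgb4*, its integrin partner, and 192 CPM of *tp63*, the transcription factor of basal keratinocytes. Of 5 outer epidermis markers compared, 2 were higher and none was lower, *icn2* at 171 CPM in epcam-high cells against 1.90 CPM in epcam-negative cells and *cldne* at 13.6 CPM against 0.517 CPM. Other outer markers were low in both classes and went in both directions. *ppl* had 6.58 CPM in epcam-high cells and 14.1 CPM in epcam-negative cells. In the same order *agr1* had 5.17 and 0.0862 CPM, *evpla* 4.23 and 0.259 CPM and *krt17* 1.41 and 0.259 CPM. The label of an epithelial cell held for this gate, and both marker lists had members that were higher in it. The cells were sorted on the fluorescence of the reporter, not on its transcript. The *EGFP* transcript stood at 43.2 CPM in epcam-high cells and at 195 CPM in epcam-negative cells. In the *sox10:DsRed*-enriched library only 1 cell was epcam-high and 239 were epcam-negative, so epithelial keratins are described from the other library.

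Keratins made up 5.09% of all UMIs in epcam-high cells and 1.35% in epcam-negative cells of the same library. Among single epcam-high cells the keratin share ran between 0.224% and 14.1% with a median of 3.96%. Epcam-high cells were also deeper, with a median of 6148 UMIs against 3415 UMIs in epcam-negative cells. In each class 18 keratins had at least 1 UMI, and the plot of levels by epcam class shows that the abundant ones stood in a different order.

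**Figure D1:**
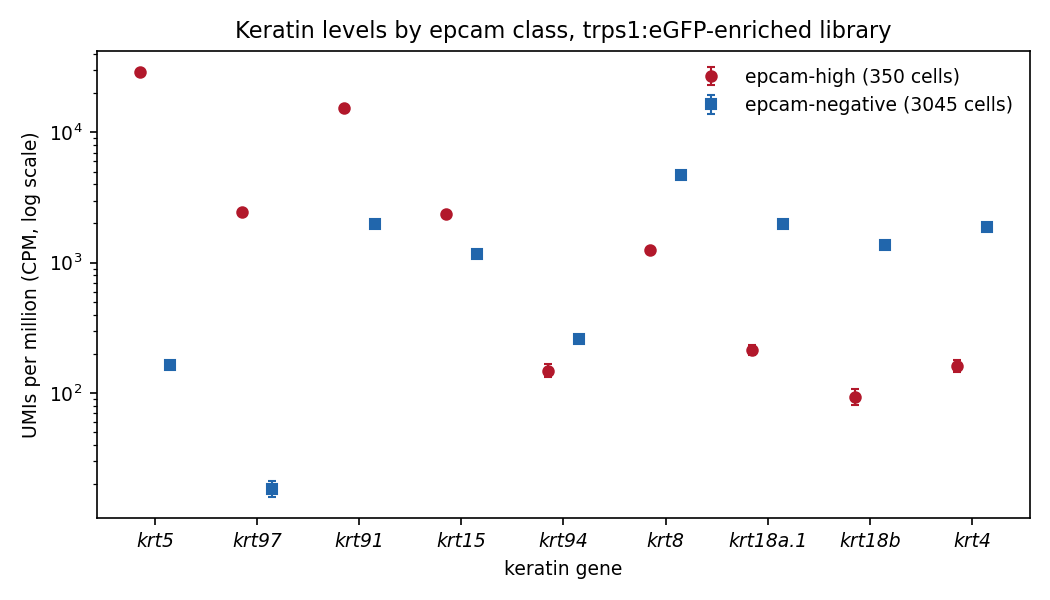
Levels of the 9 abundant keratins in CPM (log axis) in epcam-high cells (circles, 350 cells) and epcam-negative cells (squares, 3045 cells) of the *trps1:eGFP*-enriched library. Bars are exact Poisson 95% intervals. *krt5* stands at 28899 CPM in epcam-high cells against 164 CPM, while *krt18b* stands at 93.0 CPM against 1371 CPM.

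A keratin was called when its level, with 10 CPM added to both classes, differed at least 2-fold, and only genes with at least 10 UMIs over both classes were compared. Of the 21 keratins 11 met that minimum, of which 4 were higher in epcam-high cells, 4 were lower and 3 were neither. Over all 14579 genes compared, 5.07% were higher and 8.49% were lower. The median log2 fold was 0.17 over the 11 keratins and -0.16 over all genes. The keratin median lay near that of all genes because members called in opposite directions balanced.

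The higher group was led by *krt5*, the basal type II keratin. It had 28899 CPM (28671 to 29128) in epcam-high cells and 164 CPM (156 to 171) in epcam-negative cells, a 177-fold difference (169 to 185). At least 1 *krt5* UMI was found in 99.1% of epcam-high cells and in 41.4% of epcam-negative cells, and single epcam-high cells held up to 857. The next gene was *krt97*, with 2471 CPM in epcam-high cells and 18.4 CPM in epcam-negative cells, a 135-fold difference (117 to 155). Its share of cells was 90.3% against 6.24%, and *krt5* and *krt97* had the largest folds of the 11 keratins compared.

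The other higher genes were *krt91* and *krt15*, which differed less and had more UMIs in epcam-negative cells. *krt91* was the second most abundant keratin of epcam-high cells, with 15283 CPM against 1987 CPM in epcam-negative cells, 7.69-fold higher (7.56 to 7.82). The type I keratin *krt15* had 2350 CPM in epcam-high cells and 1169 CPM in epcam-negative cells. At 2.01-fold (1.95 to 2.08) *krt15* lay on the limit of the call, and it fell below the limit with at least 2 *epcam* UMIs as the gate (log2 fold 0.92) and without the top 5% of doublet scores (log2 fold 0.98).

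The lower group held both keratins of simple epithelia and *krt4*. *krt18b* was 14.7-fold lower (12.8 to 17.0), at 93.0 CPM in epcam-high cells and 1371 CPM in epcam-negative cells. *krt4* was 11.6-fold lower (10.5 to 13.0), at 160 CPM in epcam-high cells and 1865 CPM in epcam-negative cells. *krt18a.1* was 9.18-fold lower (8.37 to 10.1), at 214 CPM in epcam-high cells and 1966 CPM in epcam-negative cells. Mesenchymal cells of the joint thus held more of these filament transcripts than the epidermal cells of the same library.

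The fourth lower gene, *krt8*, was 3.80-fold lower (3.65 to 3.95), with 1243 CPM in epcam-high cells and 4721 CPM in epcam-negative cells. It was nonetheless present in almost every cell, with at least 1 UMI in 98.9% of epcam-high and 99.9% of epcam-negative cells. With cells thinned to 1000 UMIs the shares were 69.4% in epcam-high and 97.1% in epcam-negative cells, so equal detection at full depth hid the difference in level. For *krt18b* the full-depth shares were 29.4% of epcam-high cells and 89.7% of epcam-negative cells, and for *krt4* 36.3% and 84.9%.

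Among the 3 keratins called neither way, *krt94* had 148 CPM in epcam-high cells and 259 CPM in epcam-negative cells. *krt98* had 10 and 36 UMIs in these classes. *krtt1c19e* had 17 UMIs in epcam-high cells, in 9 cells, and 5 UMIs in epcam-negative cells, an 18.5-fold ratio with a wide counting interval (6.56 to 64.2) that the added 10 CPM kept below the limit. For a gene whose regulatory sequence is used to label basal keratinocytes, 7.99 CPM was a low level in cells with 192 CPM of *tp63*.

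The levels followed the number of *epcam* UMIs in steps. *krt5* stood at 164, 229, 6093, 20186, 30363 and 29128 CPM in cells with 0, 1, 2, 3 to 4, 5 to 9, and 10 or more *epcam* UMIs. *krt8* ran the other way over the same bins, with 4721, 4594, 3732, 2448, 1509 and 1120 CPM. Depth differed between the bins too, with medians of 3415, 4151.5, 3782.5, 2597, 3321.5 and 7463.5 UMIs in the same order. Its part in these steps was not tested. Cells with 1 *epcam* UMI resembled the epcam-negative cells in both genes, and the *krt5* level differed most between 1 and 3 to 4 *epcam* UMIs, while *krt8* went on to lower levels up to 10 or more.

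Genes that anchor keratin filaments were read from lists chosen for their known roles. Of 11 desmosome and envelope genes compared, 7 were higher in epcam-high cells and 1 (*pkp3b*) was lower. *dsg2.1*, a desmosomal cadherin, had 792 CPM in epcam-high cells and 8.88 CPM in epcam-negative cells. *pkp3a*, a plakophilin of the desmosomal plaque, had 610 CPM in epcam-high cells and 4.48 CPM in epcam-negative cells. Of 6 hemidesmosome genes 4 were higher and 1 (*cd151*, a tetraspanin) was lower, with *col17a1b* 119-fold higher. Of 9 other intermediate filament genes none was higher and 3 were lower in epcam-high cells, among them *vim*, which encodes vimentin, at 26.8 CPM against 380 CPM in epcam-negative cells. The cytokeratin genes *cyt1* and *cyt1l*, which the symbol rule leaves out, had 3 and 1 UMIs in epcam-high cells.

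In droplet data free RNA from broken cells puts transcripts of one cell type into droplets of another, so the detection of epithelial keratins in epcam-negative cells was set beside epithelial genes that are no keratins. The level in epcam-negative cells, as a percent of that in epcam-high cells, was 0.566% for *krt5* and 0.743% for *krt97*. It was 0.676% for *cdh1*, the epithelial cadherin, 0.763% for *tp63*, 0.842% for *col17a1b* and 1.09% for the claudin *cldni*. Over 11 epithelial and basal epidermis markers of at least 100 CPM it ran between 0.676% and 10.4% (*perp*), with a median of 1.09%. *krt5* lay below that whole range and *krt97* near its lower end, so no expression was read from the *krt5* and *krt97* UMIs of epcam-negative cells. Whether free RNA gave them was not tested.

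**Figure D2:**
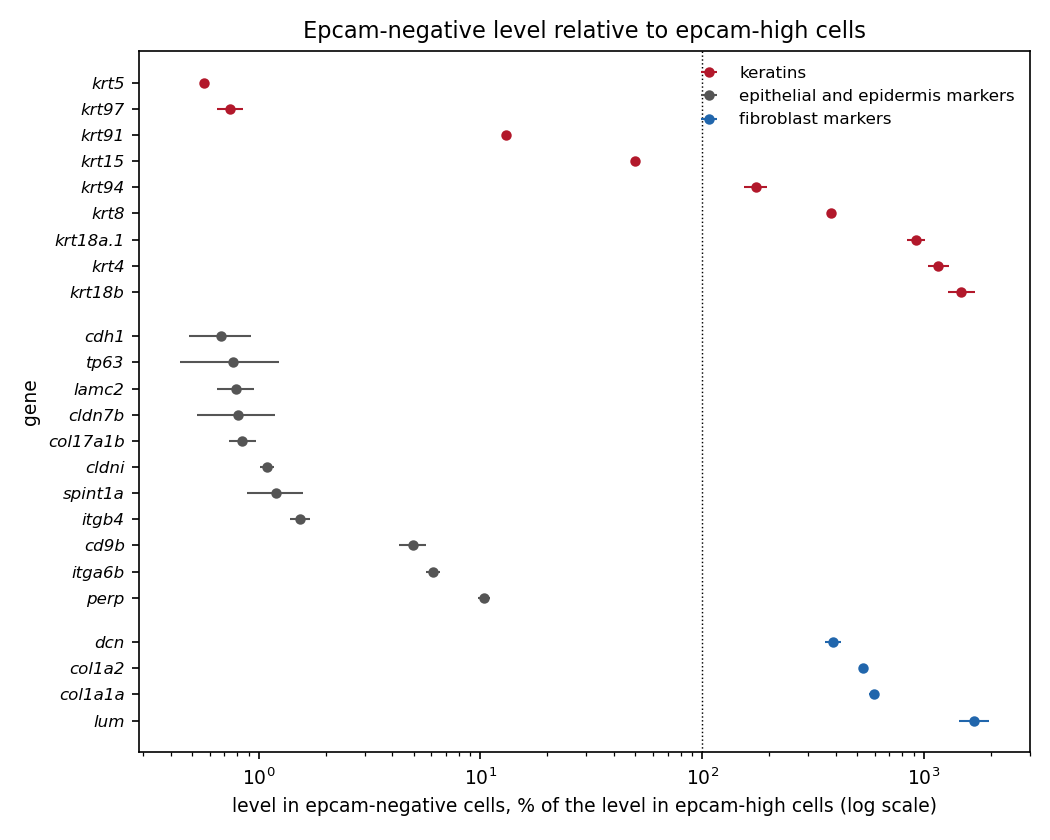
Level in epcam-negative cells as a percent of the level in epcam-high cells (log axis) for the 9 abundant keratins, 11 epithelial and basal epidermis markers and 4 fibroblast markers, with exact 95% counting intervals. *krt5* (0.566%) and *krt97* (0.743%) lie with the epithelial markers, *krt91* (13.0%) and *krt15* (49.7%) lie between the groups, and the other keratins lie above 100 (dotted line).

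The level was also compared between cell classes. Over 13 epcam-negative classes of the *trps1:eGFP*-enriched library (10 fibroblast clusters, superficial chondrocyte-like, osteoblast-like and pre-osteoblast-like cells) *krt5* stayed between 101 and 199.9 CPM, a 1.97-fold range. Over the same classes the range was 1.82-fold for *krt8*, 4.38-fold for *krt18a.1* and 5.84-fold for *krt97*, and it was 16.8-fold for *krt91*, 29.6-fold for *krt15* and 108-fold for *krt94*. An even level was thus found both for *krt5*, which was low in these classes, and for *krt8*, which was high. The lowest class level of each keratin with a range given here lay below its level in barcodes with under 500 genes of this library. The part of free RNA in these ranges was not tested. The classes left out 27 of the 3045 epcam-negative cells, which held 241 of their 1898 *krt5* UMIs. Of these, 22 endothelial-like cells held 17, and 5 cells of no class, 3 of them in the epidermal cluster, held 224. *krt97* made up 7.88% (7.67% to 8.09%) of the *krt5* and *krt97* UMIs in epcam-high cells and 10.1% (8.84% to 11.5%) in epcam-negative cells, a similar but not identical ratio.

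The same comparison was made for mesenchymal keratins in epcam-high cells. Fibroblast markers in epcam-high cells reached 5.95% (*lum*) to 25.7% (*dcn*) of their level in epcam-negative cells. *krt18b* at 6.78%, *krt4* at 8.59% and *krt18a.1* at 10.9% fell within that range. *krt8* at 26.3% lay at its upper end, within the counting interval of *dcn*. *krt94* at 57.3% lay well above the range, but its 316 UMIs came from 56 of the 350 cells, with 79 in 1 cell. Whether epcam-high cells expressed *krt18b*, *krt4*, *krt18a.1* or *krt8* themselves therefore could not be told from the summed levels. The source of their *krt94* UMIs was not tested.

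Clustering the epcam-high cells alone, with all keratins left out of the features, gave 3 subclusters of 167, 116 and 67 cells. They were led by *si:dkey-33c14.3*, *angptl7* and *ndrg1a*, and the last took the name epithelial from 3 epithelial markers while the others stayed unnamed. Of the 11 keratins compared, 9 differed at least 2-fold between the highest and the lowest subcluster, as did 26.8% of all 6460 genes compared. When cells with at least 5 *epcam* UMIs were clustered instead, into 2 subclusters, 5 of 10 keratins did, beside 12.7% of all genes. Epcam-high cells were clustered on other genes of the same cells, so these counts are a description. *krt5* had 40675 CPM in the largest subcluster, 22975 CPM in the *angptl7* subcluster and 9430 CPM in the *ndrg1a* subcluster. The order was the same for *krt91*, with 21242, 11960 and 5887 CPM, and for *krt97*, with 3189, 2290 and 1035 CPM. The basal markers did not all follow it, since *itgb4* had 2941, 1621 and 1466 CPM and *col17a1b* 2591, 1706 and 1832 CPM.

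Keratins that were lower in epcam-high cells ran otherwise across the subclusters. *krt18a.1* had 103 CPM in the largest subcluster, 259 CPM in the *angptl7* subcluster and 413 CPM in the *ndrg1a* subcluster. The collagen *col1a2* ran the opposite way, with 1871, 1475 and 509 CPM. The source of the *krt18a.1* and *col1a2* UMIs of epcam-high cells was not tested. *krt4* and *krt18b* were highest in the *angptl7* subcluster, at 331 and 178 CPM. *krt94* was found in 25, 17 and 14 cells of the subclusters while its level stood at 36.9, 229 and 299 CPM. The highest single epcam-high cell held 79 of the 316 UMIs.

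**Figure D3:**
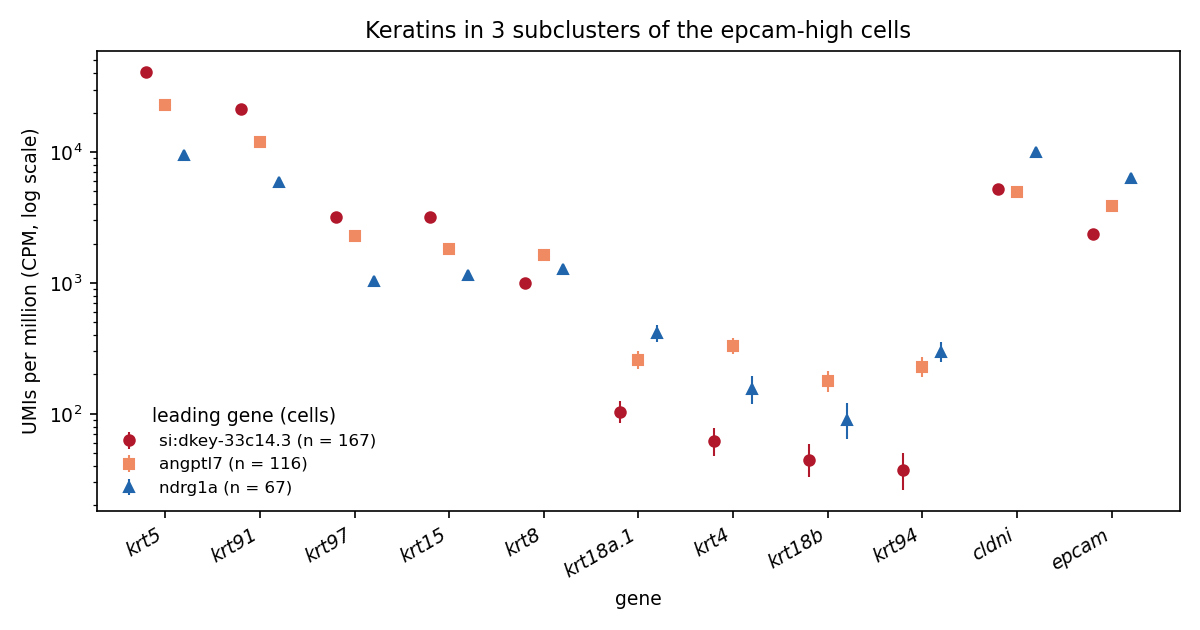
Levels of 9 keratins, the claudin *cldni* and *epcam* in CPM (log axis) in the 3 subclusters of the epcam-high cells, with exact Poisson 95% intervals. *krt5*, *krt91*, *krt97* and *krt15* are highest in the largest subcluster (circles), while *krt18a.1*, *cldni* and *epcam* are highest in the *ndrg1a* subcluster (triangles).

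Within epcam-negative cells the classes came from clusters built without keratins. The fibroblast class of the *trps1:eGFP*-enriched library was set by exclusion. It took all clusters outside the chondrocyte, superficial, osteoblast-lineage, glia, endothelial and epidermal ones. It held 2760 cells in 10 clusters, of which 1 was named ligamentocyte-like. The other 9 took no name, also none from the fibroblast markers, and are called by their leading gene. The class may thus hold mesenchymal cells other than fibroblasts. *krt8* was the most abundant keratin of the class, at 4910 CPM (4867 to 4953), with at least 1 UMI in 99.9% of cells. *krt91* followed with 2196 CPM in 90.6% of cells and *krt4* with 1953 CPM in 87.0%. *krt18a.1* had 1797 CPM, *krt18b* 1439 CPM and *krt15* 1281 CPM. Summed fibroblast cells thus held 6 keratins above 1000 CPM, beside 396 CPM of *vim*. Barcodes with under 500 genes of this library held 8608 CPM of *krt8*, 1440 CPM of *krt91*, 1205 CPM of *krt18a.1*, 881 CPM of *krt4*, 682 CPM of *krt18b* and 655 CPM of *krt15*, beside 172 CPM of *vim*. The part of free RNA in the levels of the class was not tested. A UMI of *krt8* together with one of a *krt18* gene was found in 97.5% of fibroblast cells and in 60.9% of epcam-high cells.

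These keratins were not evenly spread over the fibroblast clusters. *krt8* was the most even, between 3941 CPM in the *mamdc2b* cluster and 5628 CPM in the *aldh1a3* cluster. *krt4* was lowest in the *coch* cluster at 261 CPM and highest in the *pck1* cluster at 2789 CPM, a 10.7-fold range. *krt15* had 147 CPM in the *coch* cluster and 1992 CPM in the *ccl19a.1* cluster. *krt91* had 543 CPM in the *coch* cluster and 3584 CPM in the *pck1* cluster. The clusters led by *coch* and by *si:dkey-26g8.5* were thus the low end for *krt4*, *krt15* and *krt91* alike, at a usual level of *krt8*. For each of *krt4*, *krt15* and *krt91* both clusters lay below the barcodes with under 500 genes of this library. The part of free RNA in these low levels was not tested.

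*krt18a.1* followed another order, with 992 CPM in the *c7b* cluster and 4344 CPM (4228 to 4462) in ligamentocyte-like cells, the highest of the 10. *krt94* was lowest in the *mamdc2b* cluster at 18.1 CPM and highest in the *ccl19a.1* cluster at 528 CPM. Over the 10 cluster levels, Spearman's rho was 0.87 between *krt4* and *krt91*, 0.82 between *krt4* and *krt15*, 0.90 between *krt15* and *krt94* and -0.59 between *krt4* and *krt18a.1*. These are descriptions, since the clusters share 1 library, its free RNA and a total that is fixed for each.

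**Figure D4:**
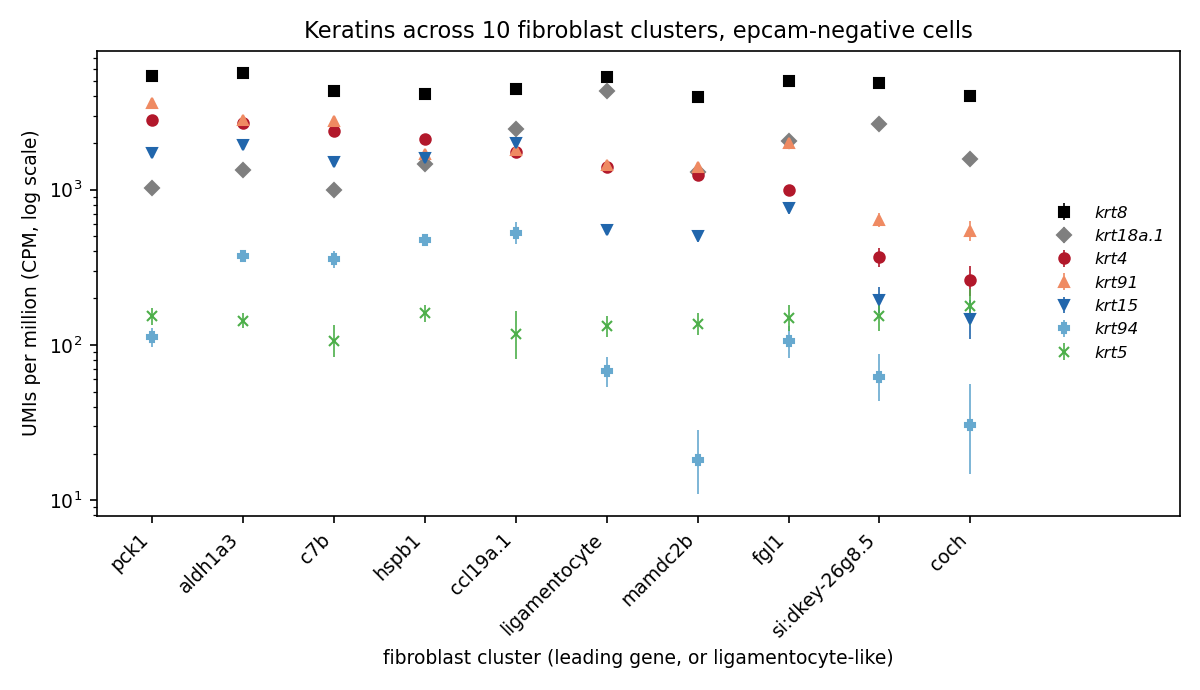
Levels of 7 keratins in CPM (log axis) in the 10 fibroblast clusters of epcam-negative cells, ordered by *krt4*, with exact Poisson 95% intervals. *krt8* stays between 3941 and 5628 CPM, *krt4*, *krt91* and *krt15* are lowest in the *si:dkey-26g8.5* and *coch* clusters on the right, and *krt5* stays between 107 and 178 CPM.

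The superficial chondrocyte-like cells, 91 epcam-negative cells named from *prg4b* (lubricin), *vcana* and *clu*, were compared with the fibroblast class of the same library. Of 10 keratins compared, 2 were higher in superficial cells, 1 was lower and 7 were neither, where 6.57% of all genes compared were higher and 5.27% lower. *krt94* had 1955 CPM (1800 to 2120) in superficial cells and 230 CPM (220 to 239) in fibroblast cells, an 8.52-fold difference (7.77 to 9.33). It was found in 79.1% of superficial cells and 24.8% of fibroblast cells, and in 62.2% and 13.1% after thinning to 1000 UMIs. *krt94* thus had its highest level of the 13 epcam-negative classes here.

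*krt4* was 2.24-fold higher (2.12 to 2.37), at 4380 CPM in superficial cells and 1953 CPM in fibroblast cells, and was the most abundant keratin of the superficial cells. *krt91* was 3.83-fold lower (3.30 to 4.48), at 573 CPM in superficial cells and 2196 CPM in fibroblast cells. *krt8* had 3531 CPM in superficial and 4910 CPM in fibroblast cells, and *krt18b* had 2388 CPM and 1439 CPM in the same order, both within 2-fold. The high *krt4* of the superficial cells thus came with low *krt91*, whereas among the fibroblast clusters these genes were high together. That *krt91* level was 3.75% of the epcam-high level, within the range of the epithelial markers above. It also lay below the 1440 CPM of barcodes with under 500 genes of this library. The part of free RNA in it was not tested. Of 10 desmosome and envelope genes compared, 1 was higher in superficial cells, *pkp1b* at 36.6 CPM (11 UMIs) against 2.94 CPM. Of 5 hemidesmosome genes 2 were higher and none was lower. They were *cd151* at 456 CPM against 53.4 CPM and *itgb4* at 99.9 CPM against 31.9 CPM. *vim* was higher too, at 1093 CPM in superficial cells against 396 CPM in fibroblast cells.

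Osteoblast-lineage cells of this library had fewer keratin UMIs, 0.770% of the total against 1.40% in fibroblast cells. In 137 osteoblast-like cells *krt8* stood at 3261 CPM and *krt18a.1* at 3178 CPM. There *krt18b* stood at 343 CPM, *krt4* at 319 CPM, *krt91* at 298 CPM and *krt15* at 67.3 CPM. All of these but *krt18a.1* lay below their levels in barcodes with under 500 genes of this library. Those barcodes held 8608 CPM of *krt8*, 1440 CPM of *krt91*, 881 CPM of *krt4*, 682 CPM of *krt18b* and 655 CPM of *krt15*. The part of free RNA in the levels of osteoblast-like cells was not tested. In 30 pre-osteoblast-like cells *krt18a.1* was at 3134 CPM and *krt18b* at 849 CPM (722 to 992). The 22 endothelial-like cells had more *krt18a.1* than any of the 13 classes, 5699 CPM (5210 to 6222), and at least 8 UMIs in every cell.

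**Figure D5:**
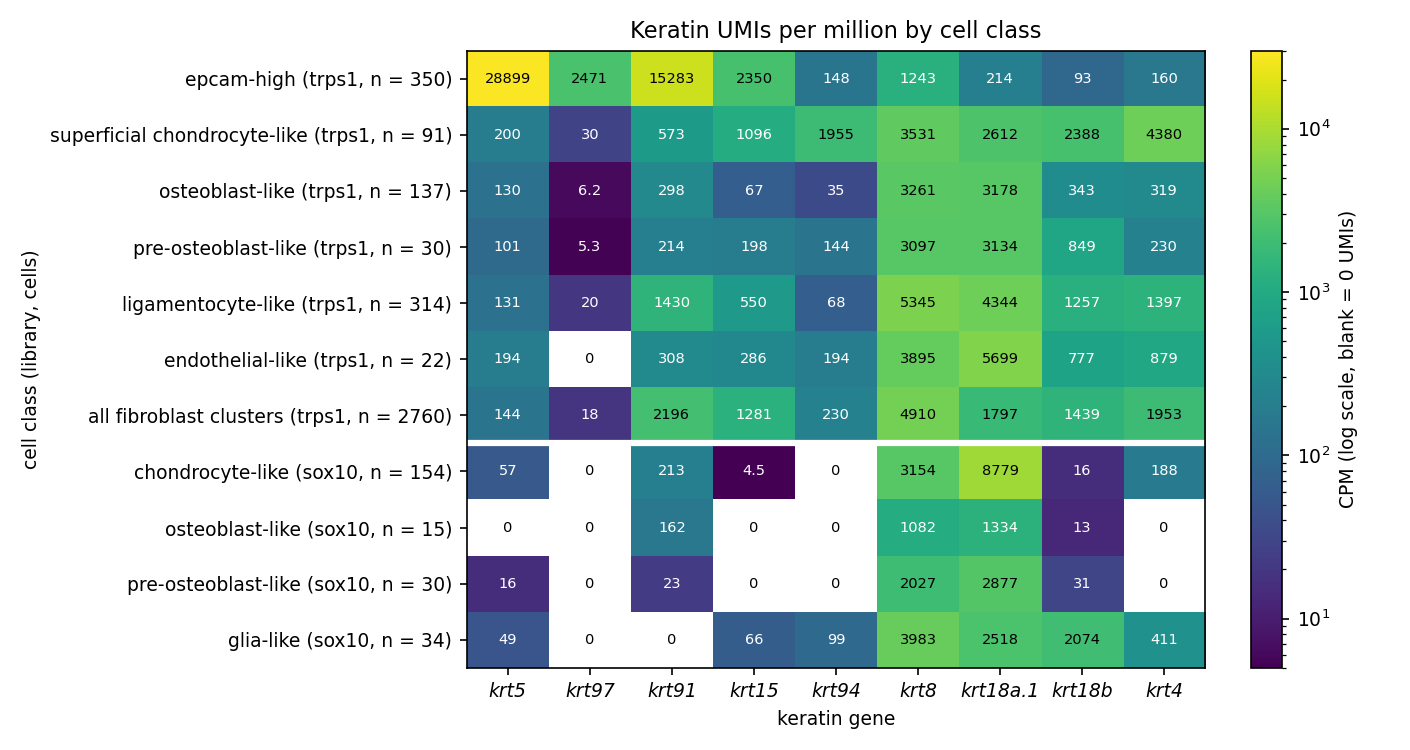
Levels of the 9 abundant keratins in CPM by cell class, with colour on a log scale and blank cells for 0 UMIs. Rows above the white line are classes of the *trps1:eGFP*-enriched library, rows below it of the *sox10:DsRed*-enriched library, and all but epcam-high cells are epcam-negative. *krt18a.1* peaks in chondrocyte-like cells (8779 CPM), *krt94* and *krt4* in superficial chondrocyte-like cells (1955 and 4380 CPM).

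The clusters of the 154 chondrocyte-like cells of the *sox10:DsRed*-enriched library were named from the chondrocyte marker list. All 11 markers compared were above the osteoblast-lineage cells, which gives no separate support for the name. These cells were dominated by a single keratin. *krt18a.1* had 8779 CPM (8504 to 9060), with at least 1 UMI in 99.4% of cells and a median of 23 UMIs per cell. This was the highest *krt18a.1* level of any named class in either library. Most other classes were counted in the other library, so class, sort and library cannot be told apart in this ranking. Osteoblast-lineage cells had 2034 CPM in this library and 3170 CPM in the other. *krt8* followed with 3154 CPM in 97.4% of cells, and *krt8* was found together with a *krt18* gene in 96.8%. All other keratins stayed at or below 213 CPM. The chondrocyte subclusters led by *fgfbp2b* (83 cells) and *matn1* (56 cells) had 9740 CPM (9344 to 10148) and 7597 CPM (7195 to 8016) of *krt18a.1*, and the third, of 15 cells, had 8219 CPM.

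Against the 45 osteoblast-lineage cells of the same library, 5 of 6 keratins compared were higher in chondrocyte-like cells and none was lower. Over all 4122 genes compared, 33.9% were higher and 8.83% lower. The median log2 fold was 0.54 over all genes and 1.51 over the 6 keratins. Chondrocyte-like cells had 441063 UMIs in total and osteoblast-lineage cells 282684, so the UMI minimum let in more genes through the former. Its part in these medians and shares was not tested. *krt18a.1* was 4.32-fold higher (3.95 to 4.72), at 8779 CPM in chondrocyte-like and 2034 CPM in osteoblast-lineage cells. *krt8* was 2.09-fold higher (1.87 to 2.33), at 3154 CPM in chondrocyte-like and 1511 CPM in osteoblast-lineage cells. In osteoblast-lineage cells both genes lay below their levels in barcodes with under 500 genes of this library. The part of free RNA in these levels was not tested. *krt18a.1* lay well above the median of all genes, whereas *krt8* at a log2 fold of 1.06 and *krt91* at 1.03 lay at the limit of the call. With keratins kept among the clustering features both fell below it, at 0.91 and 0.79, which left 3 keratins called.

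The remaining calls rested on few UMIs. *krt4* had 83 UMIs in chondrocyte-like cells (188 CPM, in 17.5% of cells) and 0 in osteoblast-lineage cells, which allows up to 10.6 CPM at 3 counts over the class, a ratio of 17.7-fold to this floor. The exact interval, which also covers the counting error of the 83 UMIs, put it at least 14.1-fold higher. *krt91* had 213 CPM in chondrocyte-like cells and 99.1 CPM in osteoblast-lineage cells, 2.15-fold higher (1.40 to 3.41). *krt5* had 25 UMIs in chondrocyte-like cells and 2 in osteoblast-lineage cells, an 8.01-fold ratio with an interval of 2.00 to 69.8. Its 56.7 CPM in chondrocyte-like cells lay below the 69.0 CPM of barcodes with under 500 genes in this library. The single epcam-high cell of the library held 378 of its 408 *krt5* UMIs. *krt18b* had 7 and 6 UMIs in these classes and was called neither way.

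The balance between *krt18a.1* and *krt18b* differed between classes. *krt18b* made up 0.180% (0.0726% to 0.371%) of *krt18a.1* and *krt18b* UMIs in chondrocyte-like cells. It made up 47.8% in superficial chondrocyte-like cells, 44.5% in fibroblast cells, 22.4% in ligamentocyte-like cells and 9.73% in osteoblast-like cells of the other library. In the 34 glia-like cells of the *sox10:DsRed*-enriched library, with a median of only 1333 UMIs, it was 45.2% (39.2% to 51.2%), with 2074 CPM of *krt18b* in 64.7% of cells and 2518 CPM of *krt18a.1* in 47.1%. The near absence of *krt18b* was thus not seen in these glia-like cells. Barcodes with under 500 genes of that library had 27.6% (24.1% to 31.2%). A near absence held for osteoblast-lineage cells of that library too, at 1.03% (0.380% to 2.23%). Osteoblast-lineage cells of the *trps1:eGFP*-enriched library had 12.2%, and its barcodes with under 500 genes had 36.2% (33.7% to 38.6%). The sort, the library, the mix of cells and free RNA cannot be told apart in the difference between osteoblast-lineage cells.

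Keratins pair as type I with type II, and the balance of the summed UMIs was computed with and without *krt91* to *krt99* among the type I genes. With the genes of given type only, type I UMIs were 8.09% (7.89% to 8.30%) of the typed UMIs in epcam-high cells and 40.0% (39.8% to 40.3%) in epcam-negative cells. Counting *krt91* to *krt99* as type I was an assumption. All of them but *krt96* and *krt97* shared a chromosome with a type I gene. A shared chromosome does not give the type, since the type I gene *krt18b* shared its own with the type II gene *krt4*. With *krt91* to *krt99* counted as type I, the shares became 40.4% in epcam-high cells and 50.1% in epcam-negative cells. The balance of epcam-high cells thus rested on the type of *krt91*, whose 32534 UMIs there stood beside 61518 of *krt5*. In chondrocyte-like cells type I UMIs were 72.1% without these genes and 72.6% with them, and in osteoblast-lineage cells of the same library 57.5% and 58.7%. Chondrocyte-like cells thus had the largest type I share among the named classes of either library. Class, sort and library cannot be told apart in this ranking. Osteoblast-lineage cells of the *trps1:eGFP*-enriched library had 50.3% without *krt91* to *krt99*.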

How the data were processed

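The study sorted dissociated jaw joint cells into 2 fractions and made 1 library of each with 10x Genomics 3′ v2 chemistry. Per the authors, Cell Ranger 3.0.0 mapped the reads to GRCz11, extended by GFP and DsRed, under a revised zebrafish annotation. The deposited matrices hold raw UMI counts of each gene in each barcode called as a cell. Reads shared by near-identical copies are not counted by such software, which can lower a keratin with a close copy.

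Cells with 500 to 2000 genes and at most 5% of UMIs on the 12 mitochondrial features were kept, as in the study. Cells were clustered in Seurat 5.3.0 under R 4.3.3 (2000 variable features less the keratins, 38 of 50 components, resolution 0.9). Epidermal and endothelial clusters were removed and the rest was clustered again, with subclustering of osteoblasts (0.2) and chondrocytes (0.5). A class took a name from at least 3 markers found in at least 5% of its cells and 2-fold above all other cells. Under 3 alternative clusterings the superficial cluster met only 2 markers and was taken as the cluster with the most *prg4b* and *vcana*.

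CPM, shares and folds of summed UMIs were computed with numpy 2.4.6 and scipy 1.17.1 under Python 3.11.15, with exact Poisson and Clopper-Pearson intervals at 95%. Cells are not replicates, so no test was run. The fold computation was tested on simulated counts. Scrublet (scanpy 1.11.5) marked 1 and 0 barcodes. Whether it worked on these data was not tested, and the top 5% of its scores were left out as an alternative. This cut took out 41 of 462 barcodes of the *sox10:DsRed*-enriched library and 258 of 4876 of the other. It is thus a weak check on doublets. Alternatives also changed the *epcam* gate, the added CPM, the UMI minimum, the gene limits and the clustering.

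Keratins with at least 100 UMIs over the kept cells, or called in a comparison, were named with values, and others by count. Other genes were named from marker and partner lists or as a cluster's leading genes. The keratins with under 100 UMIs were also named, outside that rule, after their values were seen. The members and lists were chosen with earlier results of these data known. Keratin types were to be read from protein similarity or gene descriptions, and were taken from the symbols instead, since neither was used here.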

Additional observations from a re-analysis of the deposited data

Results flagged for a closer look

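Barcodes with under 500 genes were left out of every class, and the keratin UMIs in them were counted separately. In the *sox10:DsRed*-enriched library 215 such barcodes had 6742 CPM of all keratins together, beside 12413 CPM in its chondrocyte-like cells. In the *trps1:eGFP*-enriched library 899 such barcodes had 14542 CPM of all keratins together, beside 13974 CPM in its fibroblast cells. *krt8* alone had 8608 CPM (8406 to 8815) in the barcodes of the *trps1:eGFP*-enriched library, above its 4910 CPM in fibroblast cells and 1243 CPM in epcam-high cells. *krt5* had 774 CPM there, above its 164 CPM in epcam-negative cells. The origin of these UMIs was not tested.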

How the results depend on the processing

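Of the fold values recomputed for single keratins, 203 kept their call, 4 fell below the limit and none changed sign. The 4 were *krt15* in epcam-high cells and *krt8* and *krt91* in chondrocyte-like cells, with the values given above. This tally does not show keratins that gained a call, which occurred with less CPM added. With 1 CPM added in place of 10, 2 keratins instead of 1 were lower in superficial than in fibroblast cells, the second being *krt98* at 0 and 36 UMIs. The call of *krtt1c19e* depends on this setting too. At 7.99 CPM in epcam-high and 0.431 CPM in epcam-negative cells it passes the 2-fold limit with 1 CPM added. With keratins among the features, 3 instead of 5 were higher in chondrocyte-like than in osteoblast-lineage cells. With at least 5 *epcam* UMIs, 5 instead of 9 keratins differed 2-fold between epcam-high subclusters. Keratins of superficial cells came to 16030 CPM at resolution 0.5 and 16286 CPM with 20 dimensions, against 16765 CPM, and those of osteoblast-lineage cells to 7263 CPM without the top 5% of doublet scores, against 7701 CPM. Shares moved with depth. With at least 2 UMIs required the share was 10.4% for *krt5* and 99.2% for *krt8* in fibroblast cells and 65.9% for *krt94* in superficial cells. Thinned to 1000 UMIs it was 14.7% for *krt5*, 97.1% for *krt8*, 62.2% for *krt94* and 95.4% for *krt18a.1* in chondrocyte-like cells, which was 100% without the top doublet scores. Apart from these changes in what was counted, the causes were not tested. Leaving out the 8 epcam-high cells outside the epidermal cluster, chosen after seeing the data, changed no call. No paired analysis was possible because each sort gave 1 library and the labels give no replicate numbers. The 242 cells of the *sox10:DsRed*-enriched library limit what its keratins of few UMIs can show.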
